A study of Mus musculus with 2 samples.

Results

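This account describes 31 genes of meiotic prophase that build the synaptonemal complex or carry out meiotic recombination, as measured in mouse testis by single-cell RNA sequencing in 1 library of 2-month-old mice ("young") and 1 library of 24-month-old mice ("aged"). The genes were chosen by name and listed by step: 4 of the meiotic cohesin, 5 of the chromosome axis, 5 of the central region of the synaptonemal complex, 4 of DNA break formation, 6 of strand exchange, 6 of crossover formation and 1 of meiotic entry. All 31 have a column in both tables, out of 41061 gene columns with a count in either. In both groups, the testes of Avertin-anaesthetised mice were dissociated with accutase, strained at 45 µm and captured on the BD Rhapsody microwell system, and no genetic change or drug treatment is labelled. Strain and number of mice per library are not given in the sources used here. The labels call both samples stroma cells, but spermatocyte-like and spermatid-like cells made up a large part of each library, so the cells described here are germ cells by their markers.

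In meiotic prophase, sister chromatids are held by cohesin complexes with meiosis-specific subunits, and on this scaffold each homologous chromosome forms a protein axis. SPO11 cuts the DNA, recombinases such as DMC1 search the homologue for matching sequence, and a zipper of transverse filaments and central elements, the synaptonemal complex, joins the axes while some of the breaks mature into crossovers. The order runs from leptotene and zygotene, when breaks and axes form, through pachytene, when the homologues are fully joined, to diplotene, and the haploid round spermatids follow after the meiotic divisions.

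The young table held 2771 cells and 53413783 counts, while 6823 cells and 66390904 counts were in the aged one. The lowest cell total was 3215 in the young table and 186 in the aged table, so the tables start at different depths. After the filters, 2732 young and 5691 aged cells remained, with a median of 15649.5 and 11381 counts. A total of 35 cell identifiers occur in both libraries. With 1 library per age nothing can be tested between ages. A level is a gene's summed count in a class per 1000000 counts of that class (CPM), and every interval in brackets is a 95% interval that covers counting error only. Counts are not scaled by gene length, so a level is compared across cells for the same gene and not between genes.

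Cells were clustered without the 31 genes, and clusters were named from other marker genes. Early spermatocyte-like cells (117 young, 1230 aged) comprised clusters 2 and 6. Of the young early cells 46 were in cluster 2 and 71 in cluster 6, whereas of the aged early cells 794 were in cluster 2 and 436 in cluster 6. Cluster 6 lay close to the boundary, with a score of -0.132 for early and -0.23 for late markers among the spermatocyte clusters alone. Over all clusters it scored 0.372 for early and 0.995 for late markers, where cluster 2 scored 1.233 and 0.331. Most young early cells thus came from a cluster whose late score over all clusters was the higher one. Late spermatocyte-like cells (659 young, 1321 aged) comprised clusters 0, 7 and 12, and round spermatid-like cells (498 young, 840 aged) clusters 4, 9 and 11. Among the spermatocyte clusters, cluster 12 scored 0.078 for late markers, against 0.816 in cluster 0 and 0.67 in cluster 7. Over all clusters it scored 1.199 for late and 0.436 for round spermatid markers. Median depth in the early class was 32925 counts in young and 16208 in aged cells, and in the late class 30093 and 17110. Of the 13 early spermatocyte markers, 11 had a count in the young early cells, where Prss50 and Scml2 were at 0, and 13 in the aged early cells. These markers separated the classes weakly. In young cells they summed to 3812 CPM in the early, 3247 CPM in the late and 3207 CPM in the round class. In aged cells the sums were 4259, 3445 and 3277 CPM.

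A further 19 spermatogonia-like cells and 65 cells of cluster 15 came from the aged library alone. Cluster 15 was early spermatocyte-like by its markers, with Prss50, Scml2 and Tex101 among its 10 leading genes, but was kept apart from the early class because it had split from a larger cluster. That cluster also gave the spermatogonia-like cells, Sertoli-like clusters 19 and 20 and the unnamed cluster 22, which has Cst9 and Cldn11 among its leading genes, as the Sertoli-like clusters do. None of the 2732 young cells fell in either cluster, which allows a share of up to 0.110%. The median cell of cluster 15 had 1733 counts, under the lowest total of the young table, and 8 of its 65 cells reached that total. The spermatogonia-like cells were deeper, with a median of 5310 counts, and 17 of the 19 reached it. Whether such cells were missing from the young testis or were cut from the young table cannot be told apart.

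The summed level of the 31 genes was higher in early spermatocyte-like cells than in the later classes, and low in Leydig-like cells. It was 3388 CPM (3329 to 3447) in young and 3906 CPM (3878 to 3933) in aged early spermatocyte-like cells. The sum was 2652 and 2688 CPM in late spermatocyte-like cells, 2304 and 2309 CPM in round spermatid-like cells, and 1109 and 1144 CPM in elongating spermatid-like cells. Leydig-like cells, which make androgen and do not enter meiosis, held 155 and 173 CPM, which is taken here as the background of free RNA. Other somatic cells held more: macrophage-like cells were at 158 and 338 CPM, and Sertoli-like cells, which nurse the germ cells, at 1404 CPM (1024 to 1879) in young and 1334 CPM (1078 to 1632) in aged cells. The Sertoli-like values rest on 45 counts in 4 young and 94 counts in 41 aged cells and are near those of elongating spermatid-like cells. The median early cell had a count for 15 of the 31 genes in young and 14 in aged cells. After cells were thinned to 2000 counts, which left out 26 aged early cells with fewer, the median was 5 in both. At equal depth the medians were thus the same, while the mean was 4.82 in young and higher, at 5.46, in aged cells.

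The genes followed several courses through meiosis. Of the 31, 14 in young and 18 in aged cells were highest in the early class among the early, late and round classes, and the 14 were the same genes in both. The late class held the highest level of 4 and 3 genes (2 in both libraries), and the round spermatid-like class that of 10 and 7 genes (7 in both). Rad21l, Mei4 and Spata22 had under 10 counts in the 3 classes of each library. The same division was not counted over all genes, so these numbers set nothing apart in this list. For Stag3, Prdm9, Dmc1, Brca2 and Msh5 the intervals of the highest and the next class overlapped in both libraries. They also overlapped for Hormad2, Trip13 and Rnf212 in the young library and for Rad51ap2 in the aged library.

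**Figure D1:**
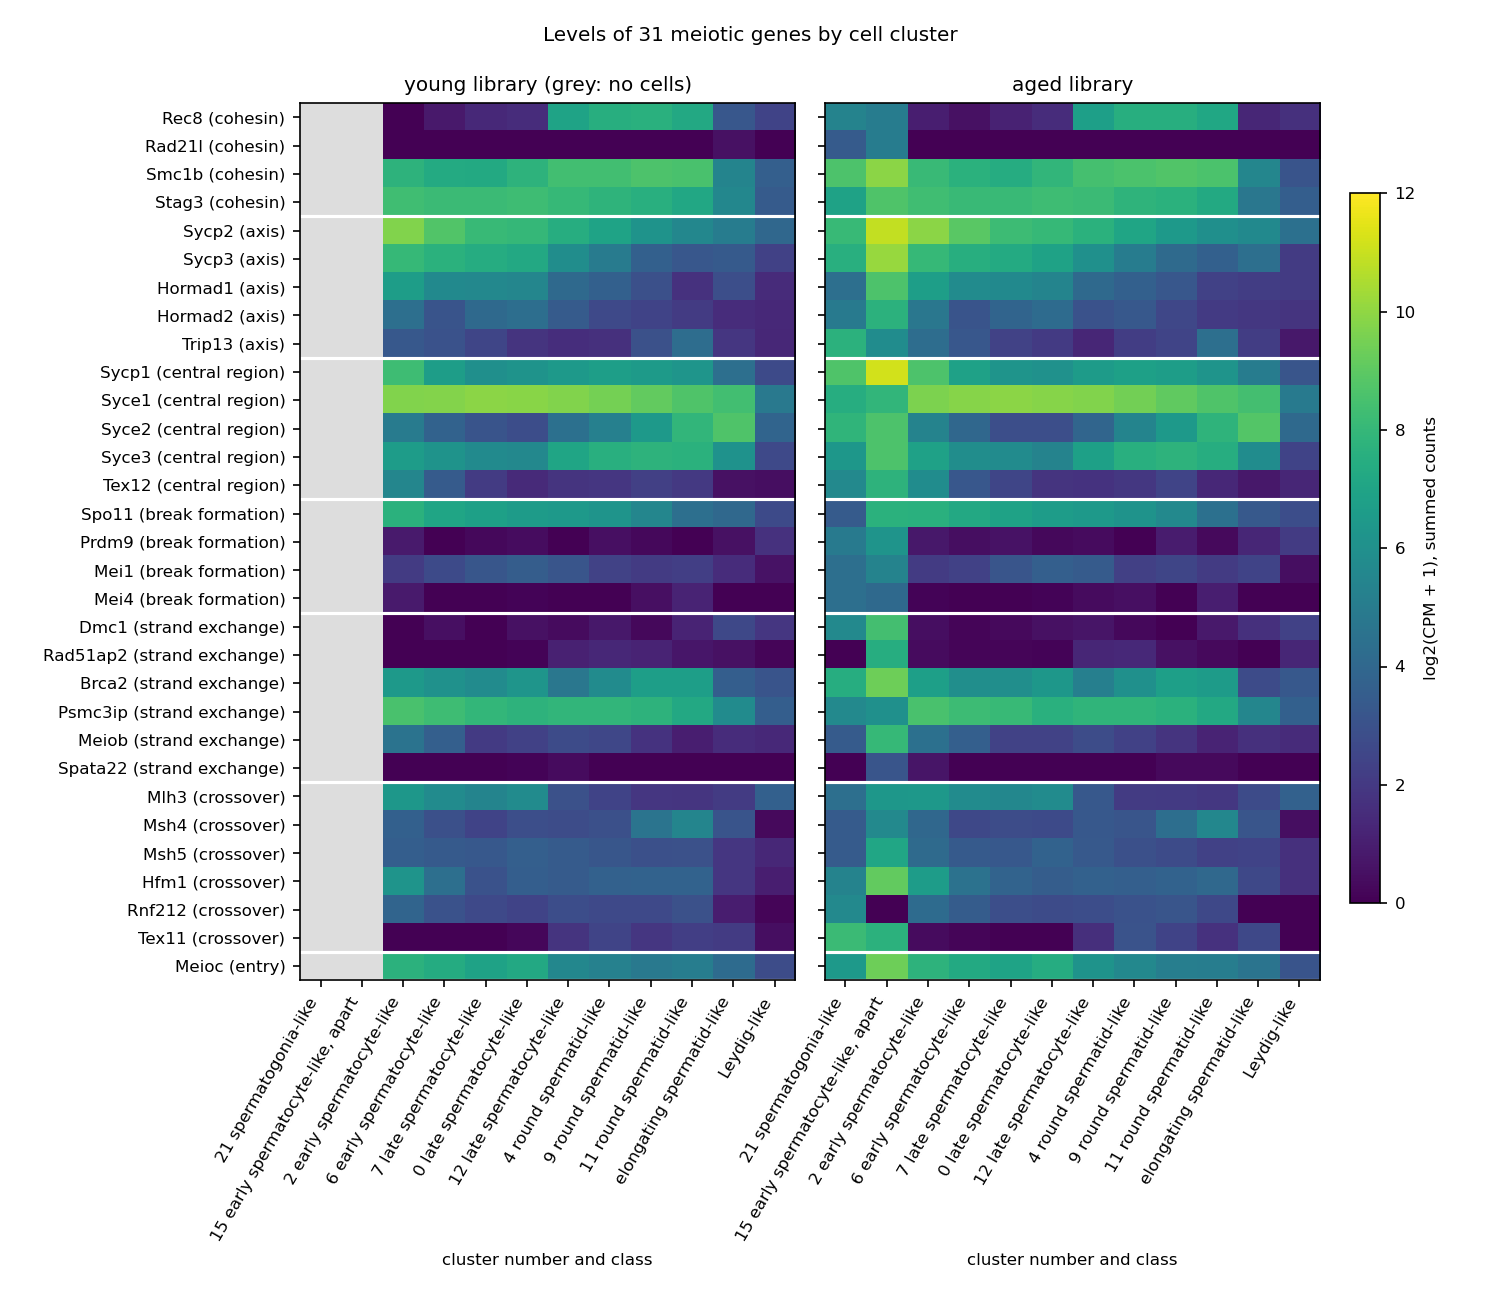
Level of each of the 31 genes (vertical axis, by step) in each cluster or class (horizontal axis), as log2(CPM + 1) by colour. The young library is on the left and the aged library on the right. Columns run from spermatogonia-like to elongating spermatid-like cells, with Leydig-like cells last. The order of clusters within a class was set by hand. Grey marks clusters with no young cell. Sycp2, Sycp3 and Hormad1 darken from cluster 2 to the round spermatid-like clusters, Rec8 brightens from cluster 12 on, and Dmc1, Rad51ap2, Prdm9 and Tex11 are brightest in cluster 15 or the spermatogonia-like cells of the aged library.

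The 250 bases before the start of 28 of the 31 genes are in the RefSeq promoter table for GRCm38.p6, as 33 windows; Spo11, Meiob and Tex11 were not matched. The 4 windows printed here show members of the early-highest group (Sycp3, Tex12) and of the round-highest group (Rec8, Smc1b), each on the strand of its gene, 5′ to 3′. They lie at chr10:88459337-88459586 (Sycp3, plus strand), chr9:50561269-50561518 (Tex12, minus), chr14:55617916-55618165 (Rec8, plus) and chr15:85131958-85132207 (Smc1b, minus). Capitals mark the E-box CACGTG and the letters TCCCGC on either strand, a core motif of E2F factors.
Sycp3: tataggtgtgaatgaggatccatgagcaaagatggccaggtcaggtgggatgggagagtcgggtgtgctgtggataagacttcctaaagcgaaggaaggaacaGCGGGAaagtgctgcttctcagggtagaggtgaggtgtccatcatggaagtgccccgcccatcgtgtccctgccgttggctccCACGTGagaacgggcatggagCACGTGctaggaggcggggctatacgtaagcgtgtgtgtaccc
Tex12: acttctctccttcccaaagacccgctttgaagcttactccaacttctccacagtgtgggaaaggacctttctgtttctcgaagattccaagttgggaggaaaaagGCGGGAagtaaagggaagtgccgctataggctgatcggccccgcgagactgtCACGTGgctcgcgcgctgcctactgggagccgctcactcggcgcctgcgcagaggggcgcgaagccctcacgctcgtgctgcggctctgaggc
Rec8: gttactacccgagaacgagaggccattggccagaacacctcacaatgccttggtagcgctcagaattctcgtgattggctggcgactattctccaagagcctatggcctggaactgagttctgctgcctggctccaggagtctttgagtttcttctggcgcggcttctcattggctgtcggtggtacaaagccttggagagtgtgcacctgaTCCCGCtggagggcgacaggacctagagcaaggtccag
Smc1b: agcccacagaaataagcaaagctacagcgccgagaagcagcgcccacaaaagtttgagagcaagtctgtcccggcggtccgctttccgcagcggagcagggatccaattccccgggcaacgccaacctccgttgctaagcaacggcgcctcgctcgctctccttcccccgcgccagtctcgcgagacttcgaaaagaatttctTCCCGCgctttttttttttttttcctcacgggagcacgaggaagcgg
The Sycp3 window holds the E-box 64 and 43 bases before the start, and the Tex12 window holds it 93 bases before. Rec8 and Smc1b hold the E2F-type letters, 38 and 47 bases before the start, and no E-box in this window. The Sycp3 and Tex12 windows hold the E2F-type letters as well, 147 and 145 bases before the start.

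Over both strands, 5 motifs were searched, and matches of different motifs may overlap. The E-box was in the window of 6 of 28 members (21.43%; Hormad1, Stag3, Syce2, Sycp1, Sycp3 and Tex12), against 6.86% of the 27025 gene symbols in the table. Among the 12 early-highest members with a window it was in 5 (41.67%), and among the 6 round-highest members in 1 (16.67%). TCCCGC was in 15 of 28 members (53.57%) against 18.81% of all symbols, in 6 of the 12 early-highest and in 4 of the 6 round-highest members. TAACNG, a MYB-type motif, was in 11 members (39.29% against 22.26%). CNCCTCAG, a STRA8-type motif, was in 5 (17.86% against 7.39%), and TGACGTNA, a cyclic-AMP response type motif, in 1 (3.57% against 2.92%). These shares are descriptions of letters in windows, with no test and no measure of binding.

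The cohesin genes split in time. Stag3, which encodes the meiosis-specific cohesin subunit that contacts the ring, was nearly level through spermatocytes. It was at 299 CPM (282 to 317) in young and 304 CPM (297 to 312) in aged early cells. Its late level was 293 and 297 CPM, and its round spermatid-like level 194 and 195 CPM, 0.661 (0.632 to 0.690) and 0.657 (0.628 to 0.687) of late. Smc1b, which encodes the meiosis-specific ring subunit SMC1β, was highest in the round class among the early, late and round classes. It was at 180.4 CPM (167 to 194) and 244 CPM (237 to 251) in early cells, 223 and 229.8 CPM in late cells, and 363 and 399.9 CPM in round spermatid-like cells. The round over late ratio was 1.63 (1.57 to 1.7) in young and 1.74 (1.67 to 1.81) in aged cells.

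Rec8, the meiotic kleisin that is cleaved to release chromosomes, was almost without counts in early cells, and its late level came mostly from cluster 12. The order of the clusters was not computed. It had 2 counts in young and 16 counts in aged early cells, 0.525 and 0.789 CPM. In the late class it was at 22.3 CPM (20.3 to 24.4) and 17.6 CPM (15.9 to 19.4), nearly all of it in cluster 12, where it was at 122 and 109 CPM against 1.9 CPM in cluster 0 of both libraries. The round spermatid-like level was 179 CPM (173 to 186) and 171 CPM (164 to 178). Cells with a count were 98.6% of young and 87.5% of aged round cells, against 2.94% and 0.868% of Leydig-like cells, at median depths of 28954 and 16265 against 6938 and 4752 counts. The 3′ end of Rec8 (chr14:55618037-55625395, plus strand) lies 5 bases from the convergent gene Ipo4, which was at 193 to 296 CPM in these classes. Whether the counting used strand is not stated, and the part of Ipo4 in the Rec8 level was not tested. Rad21l, the other meiotic kleisin, had 0 counts in the early, late and round classes of both libraries, which allows up to 0.788 CPM in young and 0.148 CPM in aged early cells.

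Of the 5 axis genes, Sycp2, Sycp3 and Hormad1 were lower in late than in early and lower in round than in late cells of both libraries. Hormad2 fell in this way in the aged library, while in the young library its early and late intervals overlapped. Trip13 had a trough in the late class. Sycp2, an axis core protein, was at 562 CPM (538 to 586) in young and 754 CPM (743 to 767) in aged early cells. The late level was 245 and 266 CPM, 0.437 (0.415 to 0.459) and 0.352 (0.342 to 0.363) of early, and in round spermatid-like cells at 90.9 and 96.2 CPM. Sycp3, its partner in the axis core, was at 223 CPM (208 to 238) and 225 CPM (219 to 232) in early cells, and the young and aged intervals overlapped. It was at 140.5 and 128 CPM in late and 20.5 and 20.8 CPM in round cells. Cells with at least 1 Sycp3 count made up 100% (young) and 95.1% (aged) of the early class, 41.8% and 25.2% of the round class and 2.67% and 1.56% of Leydig-like cells. Sycp3 is overlapped over its whole length on the other strand by Chpt1, which was at 38.0 to 66.7 CPM.

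The HORMA-domain proteins mark axes that are not yet joined, and the ATPase TRIP13 removes them. Hormad1 was at 67.7 and 82.8 CPM in early, 40.9 and 41.4 CPM in late and 8.25 and 8.43 CPM in round cells. Hormad2 was at 11.8 CPM (8.62 to 15.8) in young and 18.0 CPM (16.2 to 19.9) in aged early cells, and at 17.0 and 14.4 CPM in late cells, so its late level was above the early one in the young and below it in the aged library. Trip13 was at 7.61 CPM (5.10 to 10.9) and 14.2 CPM (12.7 to 16.0) in early cells. It was at 2.94 and 3.29 CPM in late cells and again at 6.98 and 8.65 CPM in round cells, so its course had a trough in the late class.

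The 5 central region genes, whose products sit in the same structure, did not share a course. Sycp1, the transverse filament, was at 169 CPM (157 to 183) in young and 279.7 CPM (273 to 287) in aged early cells, 71.6 and 73.1 CPM in late cells and 94.5 and 97.3 CPM in round cells. Tex12, a central element protein, was at 21 CPM (16.7 to 26.1) and 35.7 CPM (33.1 to 38.4) in early cells, and its late level was 0.104 (0.0705 to 0.151) and 0.0910 (0.0707 to 0.116) of early. Both were early genes, but Sycp1 kept a floor in round cells that Tex12, at 3.13 and 2.98 CPM, did not. Syce1, another central element gene, was nearly flat through spermatocytes, at 863 CPM (834 to 893) and 834 CPM (821 to 847) in early cells and 921 and 918 CPM in late cells. It was at 603 and 559.7 CPM in round cells and was still counted in 98.5% of young and 68.1% of aged elongating cells, against 17.0% and 11.1% of Leydig-like cells.

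Syce2 and Syce3, which complete the central element, were higher in the round than in the early and late classes. Syce2 was at 18.6 CPM (14.6 to 23.5) in young and 29.4 CPM (27.1 to 31.9) in aged early cells, 9.0 and 7.42 CPM in late cells, and 93.3 and 111 CPM in round cells. Its round over late ratio was 10.4 (8.91 to 12.1) and 14.9 (12.7 to 17.6), and in elongating spermatid-like cells it reached 412 CPM (385 to 439) and 439.8 CPM (406 to 476). Its Leydig-like level was 13.6 and 16.2 CPM, at or above that of the late class. Median depth was 6938 and 4752 counts in Leydig-like cells and 30093 and 17110 in late cells. The part of free RNA in the late value was not tested. Syce3 was at 79.3 and 90.3 CPM in early, 62.5 and 55.6 CPM in late and 199.5 and 194 CPM in round cells, a round over late ratio of 3.19 (2.99 to 3.41) and 3.49 (3.26 to 3.74).

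**Figure D2:**
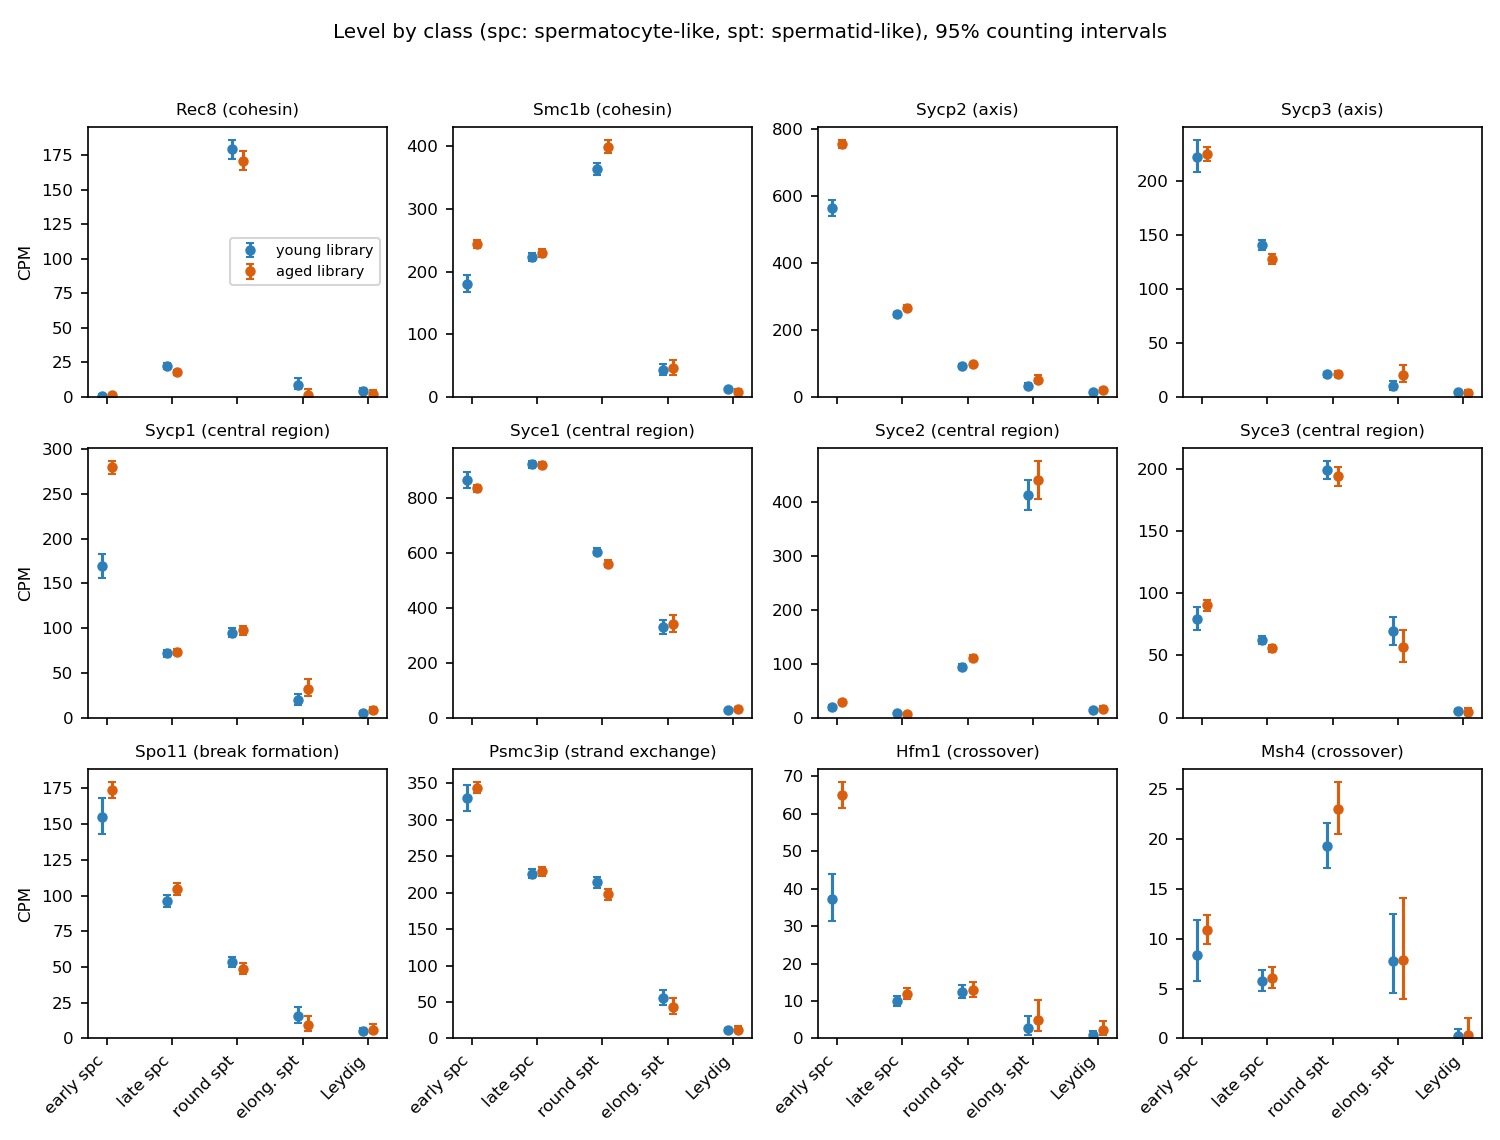
Level (vertical axis, CPM, linear and from 0) of 12 genes in early and late spermatocyte-like, round and elongating spermatid-like and Leydig-like cells (horizontal axis), in the young (blue) and aged (orange) library; points are summed counts and bars 95% counting intervals. Sycp2, Sycp3, Spo11 and Hfm1 are highest in the early class of both libraries, Rec8, Smc1b, Syce3 and Msh4 in the round class, and Syce2 in the elongating class.

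Among the break formation genes, Spo11, the topoisomerase-like nuclease itself, was the one with many counts. It was at 155 CPM (143 to 168) in young and 174 CPM (168 to 179.8) in aged early cells, 96.5 and 105 CPM in late cells and 53.4 and 48.7 CPM in round cells. Mei1, needed for break formation, ran later: it was at 4.73 CPM (2.80 to 7.47) and 3.60 CPM (2.82 to 4.53) in early and 9.61 and 9.92 CPM in late cells, a late over early ratio of 2.03 (1.3 to 3.5) and 2.76 (2.1 to 3.64). Prdm9, the histone methyltransferase that places breaks, was at 0.263 and 0.542 CPM in early cells, under its Leydig-like level of 2.27 and 3.25 CPM. Mei4, an axis-bound partner of break formation, had 1 count in the early cells of each library.

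The strand exchange genes ranged from Psmc3ip and Brca2, with many counts, to Dmc1, Rad51ap2 and Spata22, with few. Psmc3ip, which encodes the HOP2 cofactor of the recombinases, was at 329.7 CPM (312 to 348) in young and 344 CPM (336 to 353) in aged early cells, 226 and 229 CPM in late cells and 214 and 198 CPM in round cells. Brca2, which loads the recombinases, was at 72.7 CPM (64.4 to 81.8) and 88.1 CPM (84.1 to 92.3) in early, 61.9 and 66.4 CPM in late, and 79.7 and 87.5 CPM in round cells. Meiob, a single-strand DNA binding protein of meiosis, was early, at 15 and 16.6 CPM, with 4.02 and 4.39 CPM in late cells. Dmc1, the meiosis-specific recombinase, was at 0.263 and 0.247 CPM in early cells, under its Leydig-like level of 2.78 and 3.97 CPM. Rad51ap2 had 0 counts in young and 4 counts in aged early cells, and Spata22, the partner of MEIOB, had 0 and 7 counts. These early cells therefore carried axis and central region transcripts with Dmc1, Prdm9 and Rad51ap2 no higher than in Leydig-like cells.

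Of the crossover genes, Hfm1, a helicase, and Mlh3, of the endonuclease that resolves crossovers, were early. Hfm1 was at 37.3 CPM (31.4 to 43.9) in young and 64.9 CPM (61.5 to 68.5) in aged early cells, and its late level was 0.268 (0.216 to 0.334) and 0.184 (0.161 to 0.210) of early. Mlh3 was at 62.7 CPM (55 to 71.2) and 71.4 CPM (67.8 to 75.2) in early and 42.9 and 44.9 CPM in late cells. In round cells Mlh3 was at 3.52 and 3.06 CPM, under its Leydig-like level of 11.6 and 12.3 CPM.

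The MutSγ genes, whose products stabilise crossover intermediates as a dimer, differed in course. Msh4 was at 8.40 and 10.8 CPM in early, 5.78 and 6.06 CPM in late and 19.3 and 23.0 CPM in round cells, a round over late ratio of 3.34 (2.69 to 4.16) and 3.80 (3.10 to 4.68). Msh5 was at 9.98 and 13.8 CPM in early, 10.6 and 10.8 CPM in late and 7.52 and 5.52 CPM in round cells. Rnf212, which marks crossover sites, was at 9.19 CPM (6.40 to 12.8) and 14.3 CPM (12.7 to 16.1) in early and 4.88 and 6.02 CPM in late cells. Tex11, an X-linked crossover gene, had 0 and 4 counts in early cells and was at 3.79 and 4.85 CPM in round cells. Meioc, which holds germ cells in the meiotic programme, was at 179 CPM (166 to 193) and 189 CPM (183 to 195) in early, 126 and 138 CPM in late and 33.7 and 38.7 CPM in round cells.

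Counted over the list, with a gene taken as apart at 1.5-fold or more and 10 or more counts over both classes, the late class was mostly below the early class. In the young library 25 members had the counts, of which 3 were higher and 11 lower in late than in early cells, with a median log2 ratio of -0.55. Over all genes, 25.3% were higher and 27.0% lower, with a median of -0.046. In the aged library 28 members had the counts, of which 3 were higher and 16 lower, with a median of -0.68, beside 27.2% and 30.2% of all genes and a median of -0.055. Rec8 and Mei1 were higher in both libraries. The third in the young library was Tex11, with 11 late counts against 0 early ones, and in the aged library Dmc1, with 9 against 5 counts. The intervals of these last ratios reach down to 0.453 and 0.482, so neither gene was set apart at this depth.

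From late to round the list divided. In the young library 27 members had the counts, of which 9 were higher and 10 lower in round cells, with a median log2 ratio of 0.20, beside 37.4% and 33.5% of all genes and a median of -0.054. In the aged library 8 of 28 were higher and 12 lower, with a median of -0.16, beside 38.1% and 36.4% of all genes and a median of -0.10. The members' shares in the late to round step are near those of all genes, so they set nothing apart in this list as a whole. Rec8, Smc1b, Trip13, Syce2, Syce3, Rad51ap2, Msh4 and Tex11 were higher in both libraries.

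Between the ages, the early class was the class in which members differed. Of 25 members with the counts, 7 were 1.5-fold or more higher in the aged library and 0 lower, where 11.5% of all genes were higher and 13.9% lower. The median log2 ratio was 0.31, against -0.016 for all genes, and 23 of the 25 were above 0. Sycp1 was 1.65-fold higher (1.52 to 1.80), Hfm1 1.74-fold (1.46 to 2.09), Tex12 1.7-fold (1.35 to 2.17) and Trip13 1.87-fold (1.28 to 2.84). Syce2 was 1.58-fold higher (1.23 to 2.05), Rnf212 1.56-fold (1.1 to 2.29) and Hormad2 1.52-fold (1.12 to 2.13). By contrast, Sycp3 (ratio 1.01, 0.940 to 1.09), Stag3 (1.02, 0.954 to 1.08) and Syce1 (0.966, 0.930 to 1.0) had ratios near 1.

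The aged early class held more cluster 2 cells, and the median difference was smaller within each cluster. In cluster 2 alone, 2 of 24 members were 1.5-fold or more higher and 0 lower, with a median log2 ratio of 0.26, where 10.1% of all genes were higher and 14.6% lower and the median was -0.046. These were Trip13 (2.10-fold, 1.15 to 4.27) and Rec8, with 12 counts in 794 aged and 0 in 46 young cells, whose interval reaches down to 0.301, so that Rec8 was not set apart at this depth. In cluster 2, Sycp1 was at 311 and 404 CPM (1.30-fold, 1.17 to 1.45) and Hfm1 at 72.8 and 97.6 CPM (1.34-fold, 1.08 to 1.68). In cluster 6 alone, 0 of 23 members were higher and 0 lower, with a median of -0.0053, where 7.14% of all genes were higher and 11.3% lower and the median was -0.024. There Sycp1 was at 100.4 and 116 CPM (1.15-fold, 1.0 to 1.33), Hfm1 at 19.9 and 21.9 CPM (1.1-fold, 0.804 to 1.53) and Tex12 at 9.77 and 8.57 CPM (0.877-fold, 0.551 to 1.44). Of the members with the counts, 18 of 24 had a log2 ratio above 0 in cluster 2 and 11 of 23 in cluster 6. Cluster 2 has the higher level of these genes in both libraries. The part of the cluster mix in the ratio of the whole class was not tested. With 1 library per age, an age difference, a difference between mice and a difference between library preparations cannot be told apart.

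**Figure D3:**
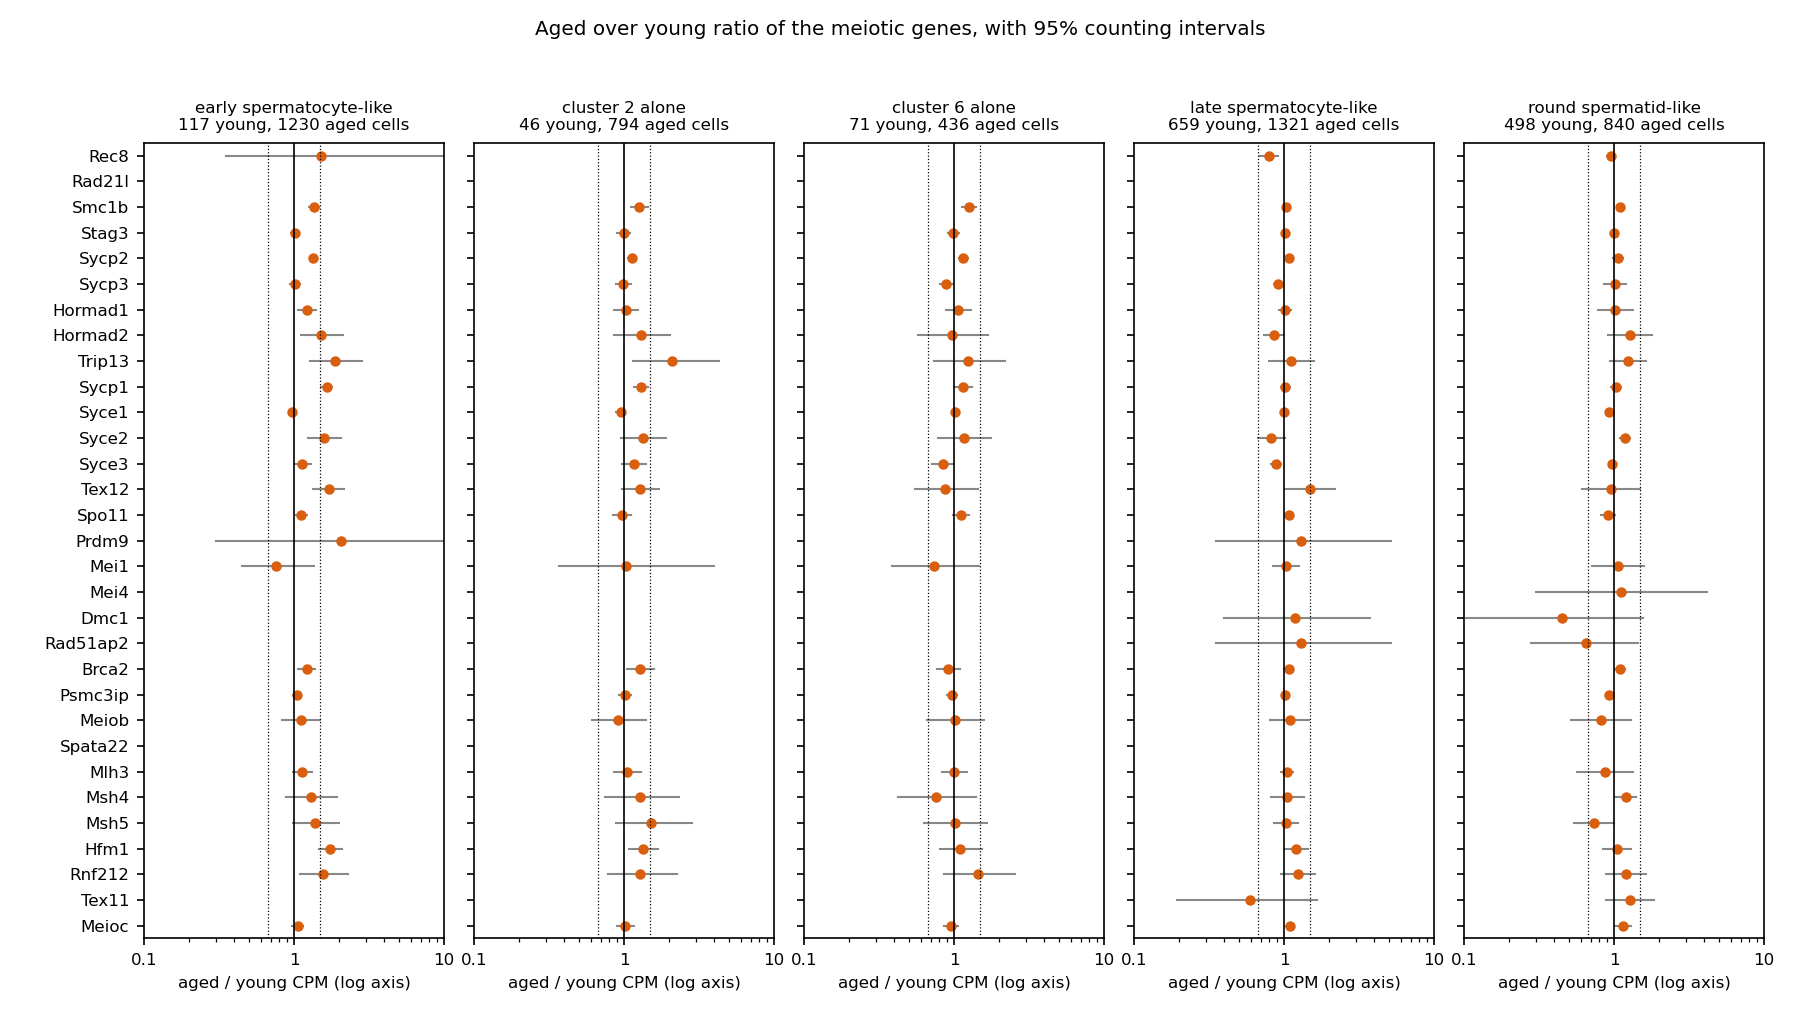
Ratio of aged over young CPM (horizontal axis, log scale) for each of the 31 genes (vertical axis) in early spermatocyte-like cells, in clusters 2 and 6 on their own, and in late spermatocyte-like and round spermatid-like cells; points are ratios, bars 95% counting intervals, dotted lines 1.5-fold in either direction, and genes with under 10 counts are left blank, as is a gene with no young count. The 7 genes past 1.5-fold in the early class lie closer to 1 in cluster 6, and the late and round panels centre on 1.

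In later cells the libraries lay close together. In the late class 0 of 28 members were higher in the aged library and 1 lower, where 6.13% of all genes were higher and 11.9% lower, and the median log2 ratio was 0.056. The lower gene was Tex11, with 7 counts against 11. In the round class 0 of 28 were higher and 2 lower, where 8.93% of all genes were higher and 8.4% lower, with a median of 0.037. These were Dmc1, with 4 counts against 10, and Rad51ap2, with 11 against 19, and the intervals of all 3 ratios include 1. Genes with many counts gave narrow intervals around 1, such as Stag3 in late (1.01, 0.979 to 1.05) and Syce1 in late cells (0.997, 0.977 to 1.02). Rec8 in late cells had a ratio of 0.791 (0.691 to 0.906).

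Cluster 15, of aged cells alone, held several genes that were at or near 0 in the early class. In the 65 cells of cluster 15 the 31 genes summed to 12214 CPM (11607 to 12846), against 3906 CPM in aged early cells. Dmc1 was at 338.8 CPM (42 counts, in 23 of the 65 cells) against 0.247 CPM, and Rad51ap2 at 177 CPM (22 counts) against 0.197 CPM. Prdm9 was at 72.6 CPM (9 counts), Tex11 at 209.8 CPM (26 counts) and Rad21l at 32.3 CPM (4 counts, against 0 in 20282774 counts of the early class). The break-placing and strand exchange genes were thus counted together with those of the axis. Dmc1 was counted in 35.4% of cluster 15 cells at a median of 1733 counts per cell, against 1.74% of aged Leydig-like cells at 4752 counts.

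Most of the structural genes were higher in cluster 15 as well. Sycp1 was at 2332 CPM (8.33 times the early level, 7.38 to 9.38) and Sycp3 at 1121 CPM (4.98 times, 4.18 to 5.90). Sycp2 was at 1879.8 CPM (2.49 times, 2.18 to 2.84), Hfm1 at 557 CPM (8.57 times, 6.63 to 10.9) and Meiob at 258 CPM (15.6 times, 10.5 to 22.4). Syce1 and Psmc3ip went the other way, at 234 CPM (0.281 times, 0.188 to 0.403) and 64.5 CPM (0.187 times, 0.0809 to 0.369). Spo11, at 202 CPM (1.16 times, 0.749 to 1.71), and Mlh3, at 80.7 CPM (1.13 times, 0.541 to 2.08), were not separated from the early class at this depth. Several of the genes highest in round cells among the 3 classes were also counted here. Smc1b was at 976 CPM (121 counts) and Syce2 and Syce3 at 395 CPM (49 counts each), each above its aged round level. Msh4 was at 48.4 CPM on 6 counts, and its interval includes the aged round level of 23.0 CPM. Mei4 had 2 counts, Spata22 1 count and Rnf212 0 counts, which allows Rnf212 up to 24.2 CPM.

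With a gene taken as apart when the ratio is past 1.5-fold and its interval is clear of 1, 22 of 28 members were higher and 2 lower in cluster 15 than in aged early cells, where 22.1% of all genes were higher and 12.3% lower. In the 8 cells at or above the lowest total of the young table, the counts were 20 and 2. Median cells of cluster 15 had counts for 9 members, and for 11 after thinning to 2000 counts, which left out 39 of the 65 cells; for aged early cells the thinned median was 5. Other markers moved with this cluster. The 13 early spermatocyte markers, all with a count, summed to 9625 CPM, against 4259 CPM in aged early cells. The cluster was named from these markers, so their sum gives no separate evidence for the name. All 11 Sertoli markers had a count and summed to 831 CPM, against 31 CPM in aged early cells, and 11 of 16 spermatogonia markers summed to 597 CPM, with Sall4, Gfra1, Nanos3, Lin28a and Ccnd2 at 0. The part of RNA from those cells in the levels was not tested.

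In the 19 spermatogonia-like cells the 31 genes summed to 3118 CPM (2782 to 3483). They are set against the same aged early cells as cluster 15 was, and were not tested against cluster 15. By the same rule 9 of 27 members were higher than in aged early cells and 7 lower, where 24.9% of all genes were higher and 12.2% lower, and in the 17 cells at or above the lowest young total 10 were higher and 7 lower. Tex11 was at 288.9 CPM (29 counts, in 14 of the 19 cells), Trip13 at 209 CPM (21 counts), Syce2 at 229 CPM (23 counts) and Smc1b at 398 CPM (40 counts). Rec8, Prdm9, Dmc1 and Rnf212 were also higher on 3 to 5 counts each, and Brca2 on 18 counts. Rad51ap2 and Spata22 had 0 counts and Rad21l 1 count. Lower were Syce1, at 179 CPM (0.215 times the early level, 0.127 to 0.340), Sycp2, at 269 CPM (0.356 times, 0.235 to 0.519), and Spo11, with 1 count, beside Stag3, Hormad1, Psmc3ip and Meioc. The cells had counts for all 16 spermatogonia markers, which summed to 4373 CPM and from which the cells were named.

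**Figure D4:**
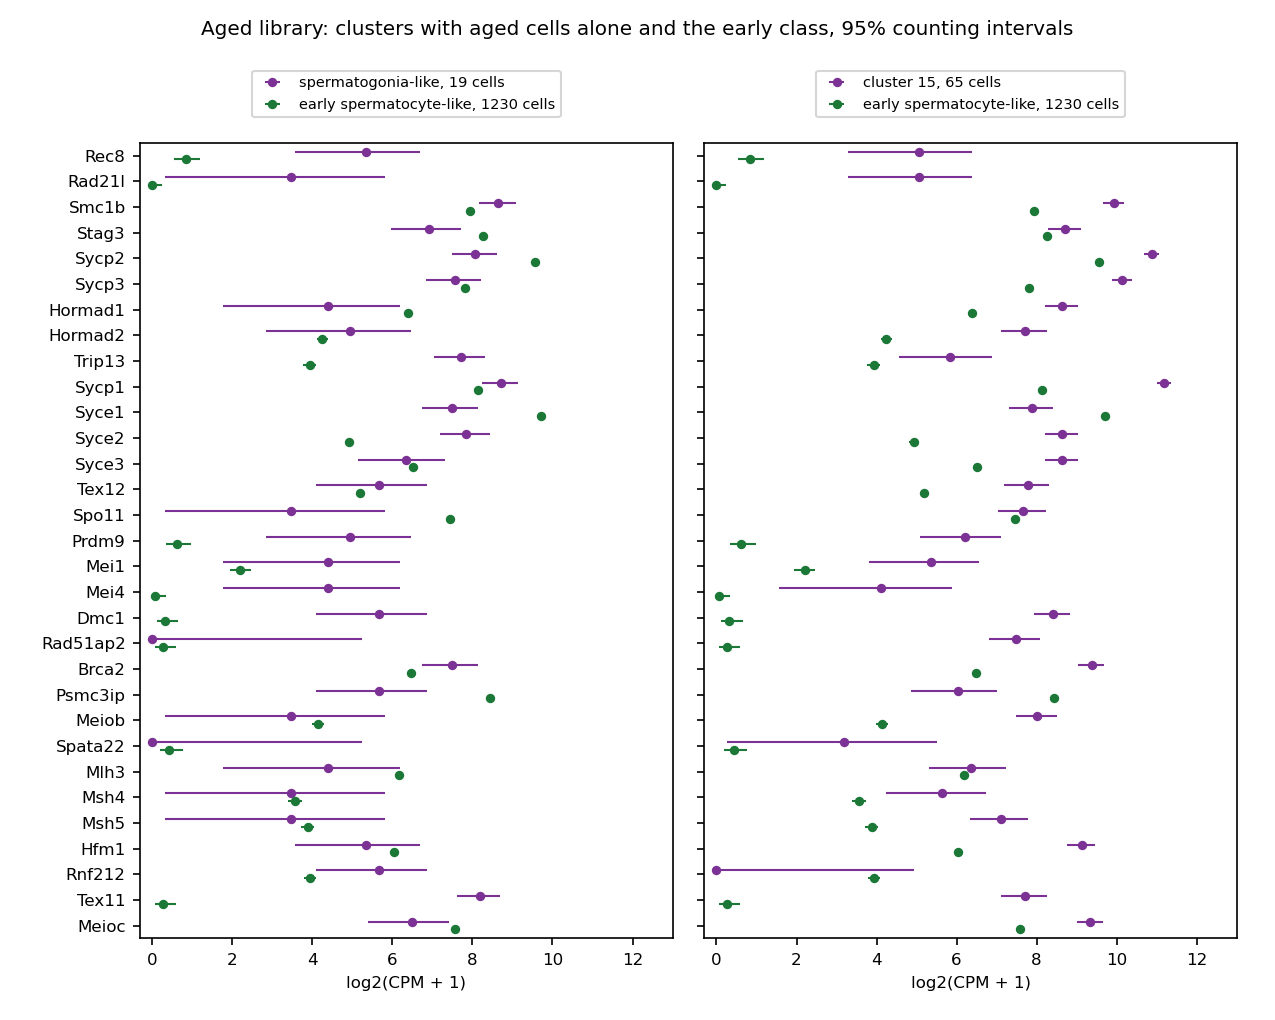
Level (horizontal axis, log2(CPM + 1)) of the 31 genes (vertical axis) in the 19 spermatogonia-like cells (left, purple) and the 65 cells of cluster 15 (right, purple) beside the 1230 early spermatocyte-like cells (green), all of the aged library; bars are 95% counting intervals. Dmc1, Rad51ap2, Prdm9 and Tex11 lie far to the right of the early class in cluster 15, and Syce1 and Psmc3ip to the left.

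A list of 83 other genes of the pathway, all with a column, gives the setting. Of 80 with the counts, 8 were higher and 37 lower in late than in early cells of the young library (median log2 ratio -0.52), where 25.3% and 27.0% of all genes were. In the aged library these were 9 and 41 (median -0.61), beside 27.2% and 30.2% of all genes. From late to round cells, 13 of 80 were higher and 46 lower in the young library (median -0.76), beside 37.4% and 33.5% of all genes, and 14 and 50 in the aged library (median -0.83), beside 38.1% and 36.4%.

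By group, the genes with most counts in spermatocyte-like cells followed these courses. Nipbl, the cohesin loader, was at 565 and 588 CPM in young and aged early and 806 and 875 CPM in late cells, and Wapl, which releases cohesin, at 163 and 157 CPM and then 232 and 249 CPM. Both were thus higher in late cells in each library. Kctd19 and its partner Zfp541, which act in the exit from pachytene, were at 459.7 and 461 CPM and at 322 and 299 CPM in early cells. Ewsr1 and Cxxc1, which bind PRDM9, were at 431 and 450.4 CPM and at 139 and 154 CPM. Swi5, an accessory factor of strand exchange, was at 494 and 599 CPM in early cells, but also at 580.1 and 656 CPM in Leydig-like cells. Atr, the checkpoint kinase of unjoined chromosomes, was at 381 and 456 CPM in early and 49.6 and 48.8 CPM in round cells.

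1700102P08Rik, of the crossover group, was at 417 and 476 CPM in early and 143 and 164 CPM in late cells, and Cdk2, the kinase found at crossovers and telomeres, at 246 and 284 CPM and then 86.3 and 107 CPM. Spdya, which activates CDK2 at telomeres, was at 267 and 268 CPM, and Ccdc155, which encodes the telomere-moving KASH5, at 99.2 and 110.4 CPM in early cells. Rbm46 and Dazl, RNA-binding proteins of meiotic entry, were at 90.3 and 114 CPM and at 37.0 and 72.9 CPM. Stra8, which starts the meiotic programme, had 0 CPM in the early and late classes of both libraries, 468 CPM in the spermatogonia-like cells and 242 CPM in cluster 15. Dazl was at 2401 and 3122 CPM in those 2 clusters.

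Between the ages, 21 of 79 pathway genes were higher in the aged early class and 2 lower, with a median log2 ratio of 0.22, where 11.5% of all genes were higher and 13.9% lower. In the late class 4 of 80 were higher and 2 lower (median 0.088), beside 6.13% and 11.9% of all genes, and in the round class 6 of 79 were higher and 3 lower (median -0.0052), beside 8.93% and 8.4%. The late and round shares of higher genes are close to or under those of all genes. Within single clusters, 8 of 79 pathway genes were higher and 5 lower in cluster 2 (median 0.087), beside 10.1% and 14.6% of all genes, and 4 of 75 higher and 4 lower in cluster 6 (median 0.054), beside 7.14% and 11.3%. The share of higher pathway genes within each cluster was thus close to or under that of all genes. Dazl was 1.97-fold higher (1.66 to 2.36) in the early class. 4930447C04Rik, which encodes the central element protein SIX6OS1, was 2.34-fold higher (1.75 to 3.19), at 13.1 and 30.7 CPM.

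Further genes of strand exchange were higher in the aged early class: the DNA translocases Rad54l (1.89-fold, 1.33 to 2.77) and Rad54b (1.69-fold, 1.24 to 2.36), Palb2 (2.03-fold, 1.24 to 3.57), Mcmdc2 (1.68-fold, 1.12 to 2.63), Rpa3 (2.08-fold, 1.12 to 4.28), Helq (1.79-fold, 1.14 to 2.95) and Topbp1 (1.53-fold, 1.3 to 1.88). In the crossover group these were Ccnb1ip1 (1.82-fold, 1.34 to 2.52) and Shoc1 (1.7-fold, 1.08 to 2.81). Among the others were the telomere anchor Terb2 (1.68-fold, 1.24 to 2.33), the PRDM9 mark reader Zcwpw1 (1.74-fold, 1.3 to 2.49), Fkbp6 (1.66-fold, 1.34 to 2.07), and, of cohesin, Stag1 (1.51-fold, 1.20 to 1.93) and Sgo1 (2.48-fold, 1.01 to 7.89). The intervals of Smc3 (1.55-fold, 0.919 to 2.79) and Esco2 (1.85-fold, 0.897 to 4.44) include 1. The 2 genes lower in the aged early class had 28 counts against 9 and 34 against 10, too few to be named by the rule used here, and the intervals of both ratios (0.268 to 1.41 and 0.308 to 1.45) include 1. In the late class, Gm960 (1.81-fold, 1.07 to 3.14) and Terb2 (1.59-fold, 0.977 to 2.63) were higher and Helq (0.595-fold, 0.396 to 0.886) lower.

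Of the 31 members, 21 have another annotated gene that overlaps them or ends within 1000 bases of their 3′ end, 18 are overlapped and 5 are overlapped by a protein-coding gene. Meiob ends 355 bases from Hagh, which was at 356 to 509 CPM, and Psmc3ip shares 385 bases with Mlx, at 3.73 to 12.6 CPM. Syce2 shares 1829 bases with Gcdh, which was at 0.132 to 1.05 CPM in the early, late and round classes, far under the Syce2 level in round cells.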

How the data were processed

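Testis cells of 1 young and 1 aged library were profiled as BD Rhapsody whole-transcriptome libraries, per the labels' protocols. Both deposited tables hold unnormalised counts, 1 whole number for each gene in each cell. Per the file headers, the aged table was made with the BD WTA Multiplex Rhapsody Analysis Pipeline 1.7.1 and a STAR 2.5.2b index. Cell Ranger 2.11 and mm10 appear, without a role, in the submitters' processing notes. The pipeline of the young table, and for both tables the annotation, strand setting, cell calling and whether counts are molecules, are not given in the sources used here.

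The filter required 500 counts, 200 genes and no more than 25% mitochondrially encoded counts, and removed 311 aged cells for low counts or genes and 1 young and 700 aged cells for mitochondrial counts alone. Scrublet, run on each library, removed 38 young (1.37%) and 121 aged (2.08%) cells. Cells were scaled to 10000 counts and logged, and 2000 variable genes without the 31 members and 83 pathway genes gave 40 principal components, 15 neighbours and leiden clusters at resolution 1 over both libraries, with no batch correction (scanpy 1.11.5, leidenalg 0.10.2). Clusters were named by mean z-scores of marker lists. The division of spermatocyte clusters into early and late was set after the clusters were seen.

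Intervals are exact Poisson (levels), exact conditional binomial (ratios) and Clopper-Pearson (shares) at 95% (scipy 1.17.1). For the counts of genes apart between classes or ages, 0.5 was added to each count before the ratio was taken. A count of 0 allows up to 3 counts. With 1 library per age there is no test, p-value or standard error. The interval code was tested on simulated data. Positions are those of GENCODE M21 on GRCm38 and RefSeq on GRCm38.p6.

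Named genes were all 31 members, with intervals for the 2 with most counts in each step and for those 1.5-fold or more apart between libraries with 50 or more counts, and pathway genes by the same rule; some pathway genes that met it are not reported here. Further intervals were added for members whose values had been seen. The members and lists were chosen with earlier results of these data known.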

Additional observations from a re-analysis of the deposited data

Results flagged for a closer look

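Cluster 5, made up of 539 aged cells and 0 young cells, could not be named from its markers and entered no class. Its summed level of the meiotic genes was above that of aged Leydig-like cells. The 31 members summed to 4682 CPM (4502 to 4867) in its cells, against 173 CPM (157 to 189) in aged Leydig-like cells, and 21 of the 31 were above their Leydig-like level. The share of all genes above their Leydig-like level was not counted, so the 21 set nothing apart in this list. The aged Leydig-like cells were deeper, with a median of 4752 counts. Sycp2 alone was at 1645.5 CPM, with Stag3 at 401 CPM, Meioc at 389.9 CPM, Brca2 at 361 CPM and Spo11 at 249 CPM, while Dmc1 had 0 CPM. Aged early cells summed to 3906 CPM. By step, the axis genes were at 1942 CPM in cluster 5 and 1095 CPM in aged early cells. The central region genes, at 741 against 1269 CPM, were the only step below the aged early level. The median cell of the cluster had 951 counts, under the lowest total of the young table, and no young cell of that depth was in the tables.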

How the results depend on the processing

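No paired analysis was possible because each age has 1 library. Of the alternative values of the summaries 136 stayed close to the value given and 52 moved, and of 91 for single genes 70 stayed, 18 moved and 3 turned direction. In the early class, the number of members higher in the aged library (7) was 3 with the lowest cell total of the young table applied to both, 12 with classes from each cell, 12 at a lower fold threshold, 0 at 2-fold, 0 without cluster 2 and 2 without cluster 6, the last 2 settings being chosen after seeing the data. The number lower (0) was 1 at 10% mitochondrial counts, 2 with free RNA subtracted, 1 with 1 or more count and 1 at the lower fold threshold. The median log2 ratio (0.31) was -0.0053 without cluster 2, where Hormad2 (-0.077) and Tex12 (-0.21) turned direction, as did Rnf212 (-0.021) when thinned. Hfm1, Trip13, Syce2 and Sycp1 kept their direction in 13 of 13 alternatives, but passed 1.5-fold in 10, 11, 8 and 6 of them, Trip13 being at 0.019 when thinned, and Rnf212, Tex12 and Hormad2 passed it in 10, 9 and 6. Of the other pathway genes, the number higher in the aged early class (21) was 8 in cluster 2 alone and 4 in cluster 6 alone, and the number lower (2) was 5 and 4, settings also chosen after seeing the data. In the late class, the number higher (0) was 1 at resolution 0.5, 1 at resolution 2, 1 with the members in the clustering, 3 with cells weighted equally, 1 when thinned, 2 with free RNA subtracted, 1 with 1 or more count, 3 at the lower fold threshold and 1 without cluster 12. The number lower (1) was 2 at the lowest young total, at 10% mitochondrial counts, with 1 or more count and at the lower fold threshold, and 0 at resolution 0.5, with classes from each cell, with cells weighted equally, with 50 or more counts, at 2-fold and without cluster 12. In the round class, the number higher (0) was 1 at 10% mitochondrial counts, at resolution 0.5, with classes from each cell, with cells weighted equally and with 1 or more count, 3 when thinned and 2 at the lower fold threshold. The number lower (2) was 1 at 10% mitochondrial counts, with the members in the clustering, with classes from each cell and at 2-fold, 0 at resolution 0.5 and with 50 or more counts, and 4 when thinned and with free RNA subtracted. The median log2 late over early ratio was -0.86 at the lowest young total and -0.81 with doublets kept in the young library (-0.55 as given), and -1.03 with classes from each cell in the aged library (-0.68). The cause of these shifts was not tested. Some alternatives leave under 50 young early cells, and the ratios of genes under about 10 counts have wide intervals.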

Other observations

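Cluster 10, with 389 aged and 3 young cells and a median of 1500.5 counts, also stayed unnamed. In its aged cells Msh4 was at 176 CPM, Rec8 at 141 CPM and Smc1b at 576 CPM, while Sycp3 was at 15.4 CPM and Mlh3 at 2.8 CPM. In the round spermatid-like class of the aged library Msh4 was at 23.0 CPM and Smc1b at 399.9 CPM. Within the round class, Msh4 and Syce2 were highest in cluster 11, at 42.9 and 237.6 CPM in the young and 46.2 and 223 CPM in the aged library, and lowest in cluster 4, at 6.7 and 36.2 CPM in the young and 8.0 and 41.8 CPM in the aged library. Trip13 had the same order, with 18.8 and 19.8 CPM in cluster 11 and 2.2 and 3.6 CPM in cluster 4.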
